A study of Mus musculus with 12 samples.

Results

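The data compared mouse cells of one engineered line with the pluripotency factor SOX2 switched on or off during the same differentiation, and were read as messenger RNA. The members were chosen by their labels alone: 3 libraries labelled SOX2-ON and 3 labelled SOX2-OFF, 6 of the 12 libraries of the series. All came from the SOX2 TetON line of male embryonic stem cells, in which the endogenous Sox2 gene had been ablated, the doxycycline-dependent transactivator sat in Rosa26 and an inducible Sox2 cDNA sat in the Hprt locus. The line came from a picked clone, so every difference here was seen in 1 clone. Both groups were cultured for 72 h in bFGF (10 ng/ml) and LGK974 (5 µM), a blocker of WNT ligand secretion, and received the GSK3 inhibitor CHIR99021, which activates WNT signalling, from day 2 to day 3. SOX2-ON cells were kept in doxycycline at 1 µg/ml and SOX2-OFF cells were not, so that SOX2 and the drug itself cannot be told apart. The other 6 libraries were wild-type cells under the same bFGF and LGK974, 3 without CHIR99021 (EpiLC, epiblast-like cells) and 3 with it from day 2 to day 3 (CEpiLC, caudal epiblast-like cells). They serve here as a reference for levels, and the line differs as well.

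SOX2 is a transcription factor with an HMG box that binds DNA together with OCT4 in pluripotent cells and is the best known member of the SOXB1 group. In the embryo its level marks epiblast and neural fates, whereas the primitive streak, where WNT and NODAL signals turn on the T-box factors T and Eomes, gives rise to mesoderm and endoderm. The effectors of WNT signalling, the TCF and LEF factors, also carry an HMG box and read a closely related DNA motif.

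The 6 libraries held 11306400 to 18658135 expected counts each, and replicates of a group correlated across genes with r of 0.988 to 0.993. EdgeR's quasi-likelihood test called a gene where its adjusted p was 0.05 or less. Of 14196 genes tested, 2095 (14.8%) were called higher in SOX2-ON and 1996 (14.1%) lower, which is 28.8% of genes in all. Counts of gene lists below are to be read beside these shares. A log2 fold change over 1 as well was met by 771 higher genes (5.43%) and 593 lower genes (4.18%). The larger the change, the fewer the genes in both directions: 106 rose and 81 fell by a log2 fold change over 3, and 28 rose and 20 fell by over 5. The median log2 fold change over all genes was -0.01. Levels are given below in TPM (RSEM's transcript abundance, scaled for transcript length and library size) for replicates 1, 2 and 3 in that order, and fold changes are log2 of SOX2-ON over SOX2-OFF from the counts, with their standard error (SE). In bulk RNA, fewer cells of a type and less RNA per cell cannot be told apart.

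Sox2 itself was read at 21.2, 15.9 and 12.3 TPM in SOX2-OFF and at 215, 173 and 174 TPM in SOX2-ON. The groups were far apart, and the log2 fold change was 3.44 with an SE of 0.22 (edgeR adjusted p = 3.11e-07). The deposited values do not separate transcripts of the transgene from those of the ablated endogenous gene. Wild-type cells had 137 ± 29.7 TPM (SD, n = 3) in EpiLC and 10.4 ± 3.01 TPM (SD, n = 3) in CEpiLC beside means of 187 TPM in SOX2-ON and 16.5 TPM in SOX2-OFF. At the locus that held the transgene, Hprt read 13.0, 17.8 and 14.6 TPM in SOX2-OFF and 21.1, 23.3 and 15.7 TPM in SOX2-ON, a difference that was not called (0.35, SE 0.19, edgeR adjusted p = 0.199). In wild-type CEpiLC Hprt read 1.64 ± 0.331 TPM (SD, n = 3). Sox2ot, a noncoding transcript that overlaps Sox2, reached 1.09, 1.51 and 0.59 TPM in SOX2-ON and was at or under 3 counts in every SOX2-OFF library, which makes it at least 7.55-fold higher.

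Gene starts of 5 genes whose changes are among those described below are shown because their windows hold the letters of a SOX or TCF/LEF motif. The windows run from 250 bases before to 50 bases after a RefSeq start site (GRCm38.p6) and were searched on both strands for AACAAAG and AACAATG (SOX), ATCAAAG (TCF/LEF), ATGCAAAT (octamer, the OCT motif) and TCACACC (T-box). Matches are in capitals, and no 2 of them overlap in the windows shown.

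Nr5a2: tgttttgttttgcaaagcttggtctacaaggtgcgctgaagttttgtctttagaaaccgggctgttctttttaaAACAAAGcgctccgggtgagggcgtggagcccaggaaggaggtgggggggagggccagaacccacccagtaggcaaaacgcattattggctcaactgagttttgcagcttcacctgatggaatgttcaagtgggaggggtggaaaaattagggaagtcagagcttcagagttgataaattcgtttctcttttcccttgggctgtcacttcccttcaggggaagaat
Trh: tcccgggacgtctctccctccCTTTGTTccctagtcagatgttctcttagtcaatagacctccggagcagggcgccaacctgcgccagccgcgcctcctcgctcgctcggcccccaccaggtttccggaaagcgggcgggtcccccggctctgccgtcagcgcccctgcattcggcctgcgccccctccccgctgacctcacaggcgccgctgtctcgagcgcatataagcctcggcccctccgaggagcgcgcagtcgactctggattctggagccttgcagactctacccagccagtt
Msgn1: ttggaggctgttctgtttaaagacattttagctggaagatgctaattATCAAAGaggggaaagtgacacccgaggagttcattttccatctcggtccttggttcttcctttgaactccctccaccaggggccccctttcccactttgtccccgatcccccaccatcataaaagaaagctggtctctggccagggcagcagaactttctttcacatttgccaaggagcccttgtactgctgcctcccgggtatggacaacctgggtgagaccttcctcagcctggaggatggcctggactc
Mesp1: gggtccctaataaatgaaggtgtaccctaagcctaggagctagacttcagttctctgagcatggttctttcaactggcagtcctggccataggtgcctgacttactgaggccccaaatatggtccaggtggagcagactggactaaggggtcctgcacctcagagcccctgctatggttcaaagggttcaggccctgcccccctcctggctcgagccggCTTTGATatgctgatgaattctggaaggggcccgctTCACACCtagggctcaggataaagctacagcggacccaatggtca
Sp5: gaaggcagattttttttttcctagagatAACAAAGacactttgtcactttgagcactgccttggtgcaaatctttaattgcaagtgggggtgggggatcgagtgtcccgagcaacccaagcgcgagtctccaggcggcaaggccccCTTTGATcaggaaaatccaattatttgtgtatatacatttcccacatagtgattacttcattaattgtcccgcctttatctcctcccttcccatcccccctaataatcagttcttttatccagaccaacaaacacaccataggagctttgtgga

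The first 2 genes were higher in SOX2-ON and the other 3 lower. The Nr5a2 window (chr1:136953581-136953880, minus strand) is 1 of 2 start sites listed for the gene, and the other has no match to any motif searched. The window shown holds AACAAAG at position -176. The Trh window (chr6:92244601-92244900, minus strand) holds the same motif on its other strand at position -229. The Msgn1 window (chr12:11208899-11209198, minus strand) holds ATCAAAG at position -203. The Mesp1 window (chr7:79793541-79793840, minus strand) holds it on the other strand at position -31, beside a T-box match at position 5. The Sp5 window (chr2:70474673-70474972, plus strand) holds both a SOX match at position -222 and a TCF/LEF match at position -104. Such letters are common. A SOX match stood in 9.36% of all 32851 windows and 5.7% of the windows of tested genes, against 8.96% of windows of genes higher in SOX2-ON by a log2 fold change over 1 and 5.9% of those lower. A TCF/LEF match stood in 3.25% of windows of these higher genes and 4.38% of those of lower genes, with 2.51% over tested genes, and a T-box match in 3.25% and 6.48%, with 3.39% over tested genes. For an octamer the shares were 2.73% and 1.71%, with 1.4% over tested genes. These shares are descriptions of letters near a start site.

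Among the SOX factors themselves, 9 of 17 tested genes rose, against 14.8% of all genes, with a median log2 fold change of 1.55. Sox2, whose rise was set by the doxycycline design, is counted among them. There 1 gene fell, a count that was 0 by limma-voom and without SOX2-OFF replicate 2 or 3 or SOX2-ON replicate 1 or 2, and 3 without SOX2-ON replicate 3. Sox21, a SOXB2 factor that is known to act against SOXB1 factors, gave the largest rise of the family. It read 0.99, 1.12 and 1.14 TPM in SOX2-OFF and 109, 116 and 93.6 TPM in SOX2-ON (6.57, SE 0.42, edgeR adjusted p = 3.11e-07). Its level in EpiLC, which had abundant Sox2, was 1.11 TPM on average. The SOXD factors moved together. Sox13 went from 4.66, 4.50 and 5.34 TPM to 33.3, 35.4 and 34.8 TPM (2.79, SE 0.15), and Sox6 from 0.19, 0.38 and 0.16 TPM to 2.96, 3.34 and 2.79 TPM (3.54, SE 0.28). Sox5 was low in both groups and rose as well (2.43, SE 0.51). Sox3, the other SOXB1 factor of the epiblast, rose to 11.3, 10.4 and 6.53 TPM from 3.81, 3.13 and 2.20 TPM, below its 55.2 TPM in EpiLC. Sox4, Sox11 and Sox12, the SOXC factors, were not called, with log2 fold changes of 0.18 (95% interval -0.21 to 0.58), -0.05 (-0.30 to 0.20) and -0.15 (-0.50 to 0.19).

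**Figure D1:**
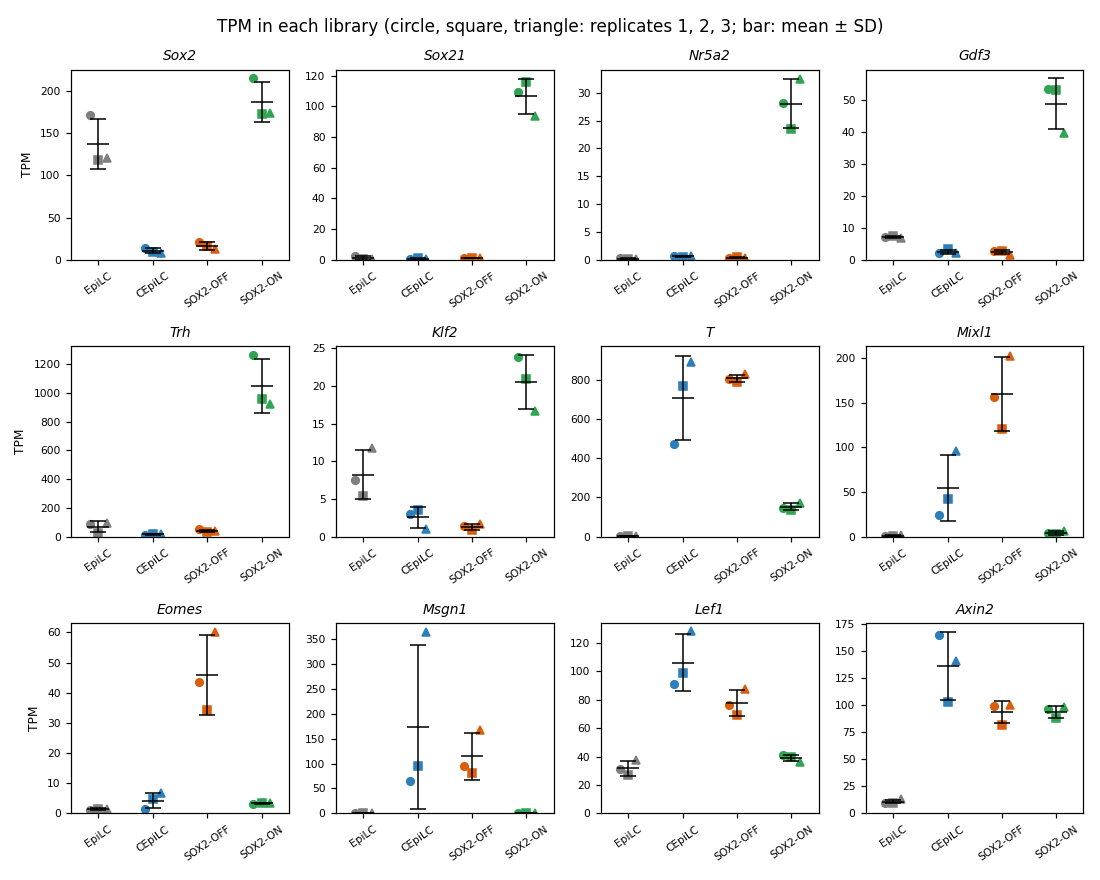
Levels of 12 genes in TPM (y axis, linear, from 0) in the libraries of the 4 groups (x axis), with a symbol per replicate and the mean ± SD as bars. SOX2-ON stands apart from SOX2-OFF in every panel but Axin2, where both groups lie between 81.5 and 99.9 TPM, and Sox21, Nr5a2, Gdf3, Trh and Klf2 are higher in SOX2-ON than in both wild-type states.

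Genes of the naive state, the ground state of embryonic stem cells before implantation, rose in part. Of 22 tested genes 15 rose and 0 fell (medians 1.23 against -0.01 over all genes). Nr5a2, an orphan nuclear receptor that binds the Oct4 gene in stem cells, read 0.39, 0.41 and 0.34 TPM in SOX2-OFF and 28.2, 23.6 and 32.5 TPM in SOX2-ON (6.13, SE 0.24, edgeR adjusted p = 1.37e-08). Gdf3, a TGF-beta ligand of stem cells, rose from 2.77, 2.72 and 1.62 TPM to 53.6, 53.3 and 39.7 TPM (4.27, SE 0.20). Dppa3, which protects the maternal genome from demethylation in the egg, rose from 7.23, 9.17 and 2.38 TPM to 117, 146 and 105 TPM (4.16, SE 0.28). All 3 SOX2-ON libraries stood above both wild-type states, in which Dppa3 averaged 4 TPM (CEpiLC) and 2.30 TPM (EpiLC). Klf2, a Krüppel-like factor of naive cells, rose from 1.44, 0.87 and 1.63 TPM to 23.8, 20.9 and 16.7 TPM (3.95, SE 0.39). Tfap2c, an AP-2 factor, rose from 4.93, 3.80 and 2.06 TPM to 26.04, 25.7 and 41.5 TPM (3.02, SE 0.26). Esrrb (1.59, SE 0.29), Tfcp2l1 (1.46, SE 0.18), Nr0b1 (1.95, SE 0.37) and Zfp42 (0.99, SE 0.11) rose by less.

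Other naive genes were not called. Klf4 read 7.83, 7.43 and 7.06 TPM in SOX2-OFF and 8.88, 9.49 and 13.3 TPM in SOX2-ON (0.45, 95% interval 0.09 to 0.81, edgeR adjusted p = 0.0608). By limma-voom Klf4 was called higher (0.42, limma-voom adjusted p = 0.0457). Klf5 read 73.9, 65.2 and 72.0 TPM against 51.2, 42.4 and 87.1 TPM. The groups overlapped through SOX2-ON replicate 3, and without that library Klf5 was called lower (-0.63, edgeR adjusted p = 0.00168). Nanog read 51.9, 68.0 and 31.7 TPM against 116, 121 and 49.98 TPM. The groups overlapped, replicate 3 was the lowest of each, and the difference was not called (0.86, SE 0.43, edgeR adjusted p = 0.157). With the replicate number as a block, in the 6 libraries alone, Nanog was called higher (0.85, edgeR adjusted p = 0.00112). Fbxo15 differed by 0.08 (95% interval -0.41 to 0.57). Klf5, Klf4 and Nanog were at 35.1, 1.66 and 16.1 TPM in CEpiLC and at 11.5, 0.88 and 16.5 TPM in EpiLC.

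Factors of pluripotency at large changed less, with 3 of 11 tested genes higher and 1 lower (2 lower without SOX2-ON replicate 2). Pou5f1, the gene of OCT4 and the DNA-binding partner of SOX2, read 887, 897 and 768 TPM in SOX2-OFF and 1160, 1080 and 985 TPM in SOX2-ON (0.27, SE 0.10, edgeR adjusted p = 0.0662). The groups did not overlap, as was true of 22.2% of all tested genes with SOX2-ON above, and Pou5f1 was called without SOX2-ON replicate 3 (0.34, edgeR adjusted p = 0.0296), in a fit of the 6 libraries alone (0.0461) and by DESeq2 (0.0433). Sall4, a zinc finger factor of stem cells, rose from 99.8, 93.5 and 108 TPM to 178, 193 and 189 TPM (0.82, SE 0.08), and Utf1, a chromatin factor of stem cells, from 58.1, 43.2 and 47.3 TPM to 127, 89.7 and 155 TPM (1.27, SE 0.18). Lin28a, which binds let-7 precursors, was not called (0.08, 95% interval -0.11 to 0.27).

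Formative epiblast genes split. Otx2, a homeodomain factor of the formative state, rose from 4.80, 4.05 and 5.68 TPM to 13.5, 12.1 and 14.4 TPM (1.44, SE 0.24), which is far below its 165 TPM in EpiLC. Fgf5, the ligand that marks the epiblast after implantation, fell from 16.6, 18.98 and 14.3 TPM to 4.98, 4.62 and 3.85 TPM (-1.94, SE 0.33). Pou3f1, a POU factor of the same state, fell as well (-1.37, SE 0.32), and Dnmt3b, a de novo DNA methyltransferase, rose (0.71, SE 0.15). In all, 6 of the 15 tested genes of this list rose and 4 fell, with a median of 0.06.

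Primitive streak genes were lower in SOX2-ON nearly throughout. Of 15 tested genes 14 fell, 93.3% against 14.1% of all genes, with a median log2 fold change of -2.79. The exception, Mesp2, was not called (0.42). T, or Brachyury, the T-box factor of the streak, read 804, 792 and 830 TPM in SOX2-OFF and 145, 138 and 172 TPM in SOX2-ON (-2.47, SE 0.18, edgeR adjusted p = 7.42e-07). In SOX2-ON, T thus still lay well above its 0.55 ± 0.118 TPM (SD, n = 3) in EpiLC. Mixl1, a homeobox gene of mesendoderm, fell from 157, 120 and 203 TPM to 3.55, 2.32 and 5.98 TPM (-5.39, SE 0.50, edgeR adjusted p = 5.96e-06). Eomes, a T-box factor of the anterior streak, fell from 43.5, 34.1 and 60.1 TPM to 3.14, 3.36 and 3.55 TPM (-3.82, SE 0.38). Gsc, a homeobox gene of the organizer, fell from 10.7, 9.22 and 14.1 TPM to 0.21, 0.33 and 0.45 TPM (-5.11, SE 0.55). In every one of these genes the groups were separate, and the CEpiLC means of Mixl1, Eomes and Gsc were 54.3, 4.25 and 3.02 TPM. The WNT ligands of the streak followed. Wnt3 went from 26.5, 26.7 and 24.3 TPM to 6.26, 6.05 and 7.55 TPM (-2.02, SE 0.13), and Wnt3a from 9.52, 12.9 and 9.68 TPM to 0.71, 1.14 and 0.86 TPM (-3.63, SE 0.26). Leaving out single libraries gave 13 or 14 of 15, and DESeq2 and limma-voom gave 13.

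Mesoderm genes downstream of the streak were among the largest falls. Msgn1, the bHLH factor of presomitic mesoderm, read 95.9, 80.3 and 168 TPM in SOX2-OFF and 0.27, 1.49 and 0.91 TPM in SOX2-ON (-7.04, SE 1.00, edgeR adjusted p = 0.000344). Mesp1, a bHLH factor of cardiac and cranial mesoderm, read 10.0, 7.37 and 17.2 TPM and then 0, 0 and 0.25 TPM, at least 33.2-fold lower. Tbx6, a T-box factor that directs cells away from a neural fate, fell from 9.46, 10.3 and 18.9 TPM to 0.26, 0.50 and 0.36 TPM (-5.11, SE 0.90), although limma-voom gave it an adjusted p of 0.0675. Replicate 3 was the highest of the SOX2-OFF libraries in all 3 genes. Aplnr, the apelin receptor, fell by 5.87 on the log2 scale (SE 0.51) and Dll3, a Notch ligand of segmentation, by 3.02 (SE 0.29). Rspo3, which boosts WNT signalling, fell from 32.7, 40.5 and 53.3 TPM to 5.34, 7.40 and 6.74 TPM (-2.75, SE 0.37). In the presomitic and paraxial list, 10 of 18 tested genes fell and 2 rose (1 without SOX2-OFF replicate 1 or 2 or SOX2-ON replicate 1 or 3). The summed level of its genes was 335 to 576 TPM in SOX2-OFF and 63.4 to 80.0 TPM in SOX2-ON. Lateral and vascular genes were mixed, with 3 of 16 higher and 3 lower (6 lower without SOX2-OFF replicate 3). These shares, 18.8% each, were near the 14.8% and 14.1% of all genes. There Isl1, a LIM factor of heart progenitors, fell (-3.77, SE 0.52), Hand1, a bHLH factor of lateral mesoderm, fell (-2.73, SE 0.38), and Tbx20, a cardiac T-box gene, rose (2.02, SE 0.38) from low levels.

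**Figure D2:**
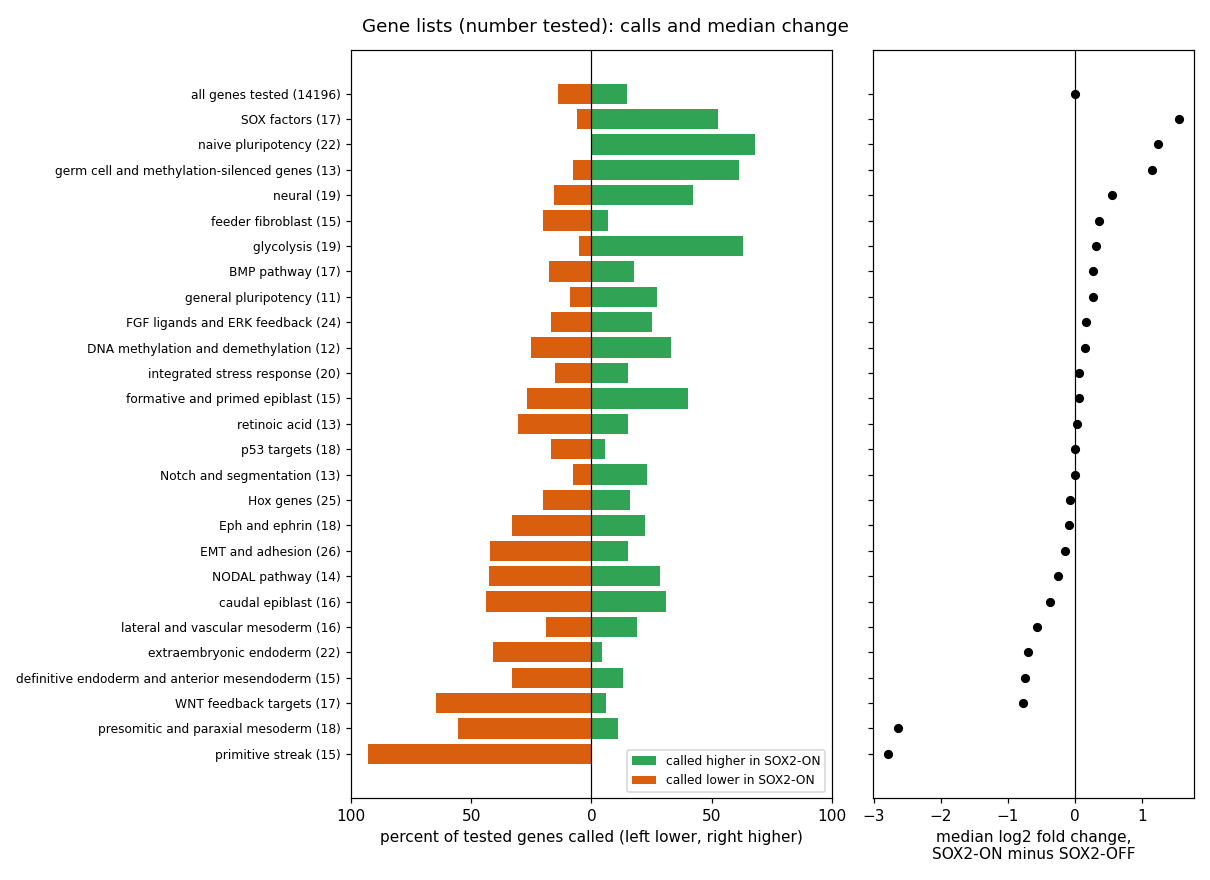
Each gene list with its number of tested genes (y axis), the percent of them called higher (right) or lower (left) in SOX2-ON (left panel, x axis), and their median log2 fold change (right panel, x axis). The primitive streak list stands at 93.3% lower and the naive pluripotency list at 68.2% higher, beside 14.1% and 14.8% over all genes tested.

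Genes that report WNT activity did not move as one. In the WNT feedback list 11 of 17 tested genes fell and 1 rose, with a median of -0.78. The gene lists share members, so their counts are not independent. T is in the streak and WNT lists, Fgf8 in the streak and FGF lists, and Mesp1 in the streak and lateral lists. Axin2, a scaffold of the beta-catenin destruction complex and a widely used readout of the pathway, read 99.3, 81.5 and 99.9 TPM in SOX2-OFF and 96.1, 87.6 and 97.7 TPM in SOX2-ON. These ranges overlapped almost fully (-0.05, 95% interval -0.36 to 0.27), and both lay far above its 10.8 ± 1.70 TPM (SD, n = 3) in EpiLC. Sp5, a zinc finger target of beta-catenin, fell from 123, 104 and 141 TPM to 56.9, 40.5 and 59.1 TPM (-1.28, SE 0.20, edgeR adjusted p = 0.000404), while EpiLC had 0.06 TPM. Lef1, one of the HMG-box effectors, fell from 76.4, 69.3 and 87.7 TPM to 41.0, 39.5 and 36.3 TPM (-1.06, SE 0.15). Its relative Tcf7 fell by 0.53 on the log2 scale (SE 0.07). The ubiquitin ligases that remove WNT receptors, Znrf3 and Rnf43, fell by 0.70 (SE 0.09) and by 0.82 (SE 0.17), and Ccnd1, the cyclin D1 gene, fell by 0.78 (SE 0.11). Dkk1, a secreted WNT inhibitor, fell from 41.5, 44.3 and 60.3 TPM to 9.95, 13.3 and 20.2 TPM (-1.81, SE 0.39). Notum, a WNT deacylase, fell by 1.18 (SE 0.29), but limma-voom gave it an adjusted p of 0.0746. Sfrp1, a secreted WNT antagonist, was the gene that rose (1.21, SE 0.21).

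NODAL signalling genes were lower at the level of the ligand and its partners. Nodal fell from 65.8, 80.1 and 49.6 TPM to 17.5, 14.2 and 10.9 TPM (-2.25, SE 0.30, edgeR adjusted p = 0.000114). Tdgf1, the co-receptor Cripto, fell from 44.6, 50.3 and 46.6 TPM to 13.8, 16.5 and 8.19 TPM (-1.93, SE 0.43). Foxh1, the DNA-binding partner of SMAD2 and SMAD3, fell by 0.55 (SE 0.09). Gdf3, described above, moved the other way, as did the inhibitor Smad7 (0.81, SE 0.19) and the effector Smad3 (0.55, SE 0.13). The list counted 4 genes higher and 6 lower of 14.

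Among BMP genes, 3 of 17 rose and 3 fell, or 17.6% each, near the 14.8% and 14.1% of all genes. The ligand Bmp7 was not called, and read 24.8, 23.6 and 23.3 TPM against 23.9, 23.4 and 23.5 TPM. Id3, an inhibitor of bHLH factors that BMP signalling induces, rose from 20.3, 26.4 and 26.1 TPM to 88.5, 87.2 and 120 TPM (1.97, SE 0.18, edgeR adjusted p = 6.36e-06). Id4 rose from 1.75, 1.04 and 1.24 TPM to 10.5, 9.53 and 9.32 TPM (2.81, SE 0.28). Nog, whose product binds and blocks BMP ligands, read 2.64, 2.63 and 2.77 TPM in SOX2-OFF and 0.17, 0.06 and 0 TPM in SOX2-ON, at least 15.1-fold lower.

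In the FGF list genes moved in both directions, 6 of 24 higher (25%) and 4 lower (16.7%), beside 14.8% and 14.1% of all genes. Fgf8, the ligand of the streak, fell from 23.5, 34.1 and 21.3 TPM to 4.29, 4.95 and 2.58 TPM (-2.79, SE 0.33, edgeR adjusted p = 4.76e-05). Fgf17, a ligand of the same subfamily, fell by 1.62 (SE 0.34). Some genes that FGF and ERK signalling induce were called higher and others were not called. Spry2, an inhibitor of receptor signalling, rose from 56.6, 50.4 and 65.2 TPM to 119, 117 and 176 TPM (1.21, SE 0.19), and Etv5, an ETS factor, from 76.7, 68.5 and 74.8 TPM to 138, 127 and 125 TPM (0.78, SE 0.10). Spred1, another inhibitor, rose by 0.60 (SE 0.07), and the receptor Fgfr2 rose from 4.81, 5.19 and 4.23 TPM to 13.3, 16.4 and 17.6 TPM (1.68, SE 0.25). Dusp6, an ERK phosphatase, was not called at 180, 156 and 210 TPM against 144, 127 and 195 TPM, nor was Etv4 (0.18, SE 0.23).

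Retinoic acid genes counted 2 higher (15.4%) and 4 lower (30.8%) of 13 tested, beside 14.8% and 14.1% of all genes. Cyp26a1, the enzyme that degrades retinoic acid, fell from 27.7, 29.8 and 54.0 TPM to 0.51, 0.41 and 1.18 TPM (-5.78, SE 0.80, edgeR adjusted p = 0.000155). Crabp2, which carries retinoic acid to its receptors, fell from 71.7, 70.3 and 60.3 TPM to 15.3, 21.4 and 14.2 TPM (-2.05, SE 0.16). Rdh10, which makes the precursor retinaldehyde, fell by 1.22 (SE 0.22). Aldh1a3, a synthesising enzyme, rose from 0.14, 0.13 and 0.21 TPM to 0.56, 0.44 and 1.13 TPM (2.15, SE 0.54).

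Hox genes, which pattern the body axis in the order of their chromosomal clusters, were called in both directions, 4 of 25 tested genes higher and 5 lower, or 16% and 20% beside 14.8% and 14.1% of all genes. Hoxb1 read 75.1, 75.6 and 128 TPM in SOX2-OFF and 1.60, 1.78 and 2.45 TPM in SOX2-ON (-5.63, SE 0.51, edgeR adjusted p = 5.35e-06). Hoxb2 fell from 18.5, 16.7 and 36.9 TPM to 0.77, 1.43 and 1.69 TPM (-4.25, SE 0.52), and Hoxb3 by 1.72 (SE 0.41). At the other end of the same cluster, Hoxb8 rose from 1.04, 0.91 and 1.01 TPM to 3.40, 3.39 and 8.07 TPM (2.27, SE 0.48, edgeR adjusted p = 0.00328). Hoxb7 (1.67, SE 0.55), Hoxb9 (2.04, SE 0.56) and Hoxc8 (2.15, SE 0.71) were also called higher. Without SOX2-ON replicate 3, 26 Hox genes were tested, of which 1 was called higher, namely Hoxb8, and 6 lower. In that fit Hoxb7, Hoxb9 and Hoxc8 had edgeR adjusted p of 0.0683, 0.0592 and 0.0992. Hoxb7 also lost its call without any other library but SOX2-OFF replicate 3 (up to 0.159). Hoxb9 lost it without SOX2-OFF replicate 1 or 2 (0.0545 and 0.0566), and Hoxc8 without SOX2-OFF replicate 1 or 3 or SOX2-ON replicate 2 (0.0983, 0.0916 and 0.112). The count of higher genes was 1 without SOX2-OFF replicate 1 and 2 without SOX2-OFF replicate 2. For all 4 genes limma-voom gave an adjusted p over the threshold, from 0.0547 to 0.231. In level, Hoxb9 was at 4.93, 5.12 and 9.60 TPM in SOX2-ON and 1.38, 1.49 and 1.78 TPM in SOX2-OFF, whereas CEpiLC had 99.4 ± 56.7 TPM (SD, n = 3).

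**Figure D3:**
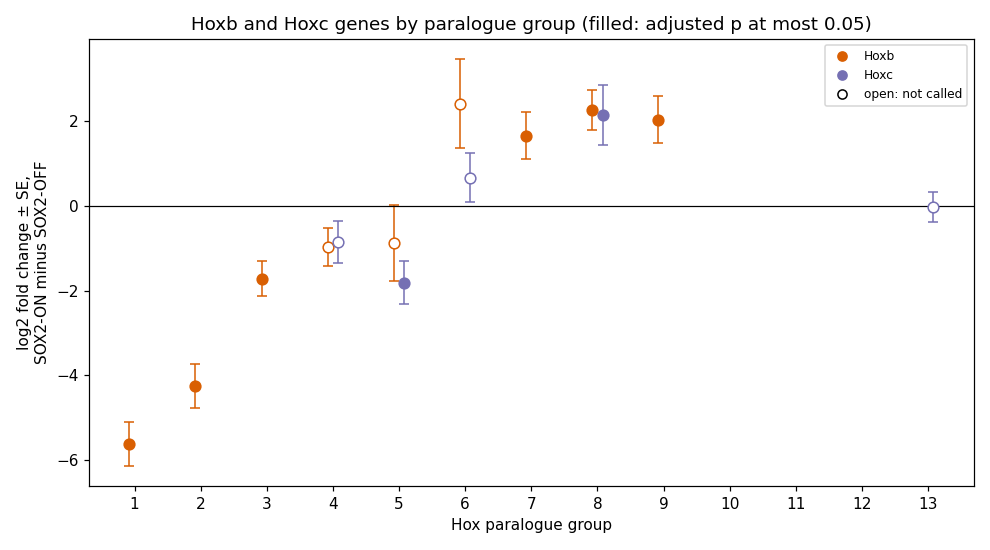
Log2 fold change of SOX2-ON over SOX2-OFF (y axis, with SE bars) of the tested genes of the Hoxb and Hoxc clusters by paralogue group (x axis), with cluster in colour and called genes filled. Hoxb1, Hoxb2 and Hoxb3 lie below 0 at -5.63, -4.25 and -1.72, and Hoxb7, Hoxb8 and Hoxb9 lie above 0 at 1.67, 2.27 and 2.04.

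The Cdx genes, which act upstream of Hox genes in the caudal embryo, did not move as one. Cdx1 fell from 53.1, 46.9 and 47.6 TPM to 17.9, 11.96 and 15.9 TPM (-1.74, SE 0.23), whereas Cdx2 rose from 31.9, 29.2 and 35.9 TPM to 70.3, 51.8 and 74.9 TPM (0.97, SE 0.22, edgeR adjusted p = 0.00481). Cdx4 rose from 3.42, 2.82 and 4 TPM to 9.20, 9.43 and 11.1 TPM (1.50, SE 0.44, edgeR adjusted p = 0.0203), a call that was lost without SOX2-OFF replicate 1 (0.0583) or 2 (0.0805) and by limma-voom (0.152). In CEpiLC Cdx2 averaged 225 TPM and Cdx4 29.7 TPM. Gbx2, a homeobox gene of the caudal epiblast and hindbrain, rose from 20.5, 20.9 and 35.2 TPM to 75.2, 73.9 and 54.4 TPM (1.38, SE 0.24). Wnt8a, a ligand of the caudal epiblast, was not called, at 22.1, 24.8 and 17.4 TPM against 15.1, 16.4 and 7.99 TPM. Its groups did not overlap, as was true of 21.6% of all tested genes with SOX2-ON below. Wnt8a was called lower in the 6 libraries alone (-0.75, edgeR adjusted p = 0.0452), and there also with the replicate block (-0.77, 0.00827). Nkx1-2, a homeobox gene of caudal lateral epiblast, was called lower (-0.81, SE 0.23), but not without SOX2-OFF replicate 2 (edgeR adjusted p = 0.0864) or SOX2-ON replicate 3 (0.0554). The list had 5 genes higher (3 without SOX2-OFF replicate 1 or by limma-voom) and 7 lower of 16.

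Some neural regulators rose from levels near 0, while Nes and Gap43 fell. Neurog2, a proneural bHLH factor, had no count in SOX2-OFF and 1.79, 2.56 and 1.41 TPM in SOX2-ON, at least 9.9-fold higher. Zic1, a zinc finger factor of the neural plate, rose from 0.74, 0.42 and 0.42 TPM to 4.52, 5.02 and 4.45 TPM (3.08, SE 0.33). Pax6, the eye and forebrain regulator, reached 0.55, 0.59 and 0.64 TPM and was at least 5.14-fold higher. Nes, an intermediate filament of neural progenitors, fell from 85.9, 81.2 and 68.2 TPM to 25.8, 28.7 and 22.4 TPM (-1.66, SE 0.15), and Gap43, a growth cone protein, fell by 1.69 (SE 0.21). In this list 8 of 19 tested genes rose (5 without SOX2-OFF replicate 2) and 3 fell. These shares were 42.1% and 15.8%, beside 14.8% and 14.1% of all genes. The count of lower genes was 2 by limma-voom and when any library but SOX2-OFF replicate 2 was left out. Outside the neural list, Insm1, a zinc finger factor of neuroendocrine cells, rose from 0.12, 0.32 and 0.23 TPM to 5.75, 6.40 and 7.76 TPM (4.80, SE 0.27). Tfap2a, an AP-2 factor of ectoderm and neural crest, rose from 0.55, 1.03 and 0.76 TPM to 17.3, 20.5 and 23.8 TPM (4.66, SE 0.29). Tfap2a was near 0 in both wild-type states.

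Most tested genes of a list of germ cell and methylation-silenced genes were also called higher. Of 13 tested genes 8 rose (61.5%) and 1 fell (7.69%), beside 14.8% and 14.1% of all genes (median 1.15). Another 7 of the 20 listed genes were not tested. The summed level of the list did not separate the groups. It was 237 to 259 TPM in SOX2-OFF and 249 and 256 TPM in SOX2-ON replicates 1 and 2. Only SOX2-ON replicate 3 lay above the SOX2-OFF range. Prdm1, a repressor of somatic genes in germ cell precursors, rose from 0.49, 0.54 and 0.53 TPM to 4.15, 4.59 and 5.86 TPM (3.17, SE 0.26). Ddx4, an RNA helicase of germ cells, rose from 10.7, 7.98 and 9.76 TPM to 23.3, 22.5 and 23.0 TPM (1.23, SE 0.11), and Dazl, an RNA-binding protein of germ cells, from 0.45, 0.19 and 0.24 TPM to 1.55, 0.95 and 1.66 TPM (2.17, SE 0.43). Prdm14, which acts beside Prdm1 and Tfap2c in these cells, did not pass the filter and read at most 0.21 TPM in all 6 libraries.

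Adhesion and cytoskeletal genes changed selectively. The epithelial genes Cdh1, for E-cadherin, and Epcam were not called, with intervals of -0.21 to 0.19 and -0.20 to 0.18 on the log2 scale. Cdh1 read 467, 441 and 343 TPM against 429, 423 and 436 TPM. Cldn4, a tight junction protein, fell from 225, 206 and 190 TPM to 32.1, 25.9 and 36.0 TPM (-2.78, SE 0.14, edgeR adjusted p = 7.99e-08). The simple keratins fell together, Krt18 among them (-1.71, SE 0.21). Krt8 went from 580, 612 and 501 TPM to 154, 159 and 275 TPM (-1.58, SE 0.21), and Krt19 from 114, 138 and 79.4 TPM to 16.9, 11.7 and 21.1 TPM (-2.77, SE 0.30). Genes linked to the mesenchymal change fell too. Snai1, a repressor of E-cadherin, went from 28.1, 27.1 and 53.1 TPM to 7.35, 4.64 and 7.43 TPM (-2.52, SE 0.47), and Fn1, fibronectin, from 390, 274 and 402 TPM to 88.6, 99.6 and 87.3 TPM (-2.02, SE 0.32). Cdh2, N-cadherin, fell by 1.32 (SE 0.24), and Vim, vimentin, was not called (-0.13, SE 0.12). Cdh3, P-cadherin, rose from 21.7, 16.7 and 20.6 TPM to 63.1, 64.4 and 57.8 TPM (1.60, SE 0.16). In all, 4 of 26 genes rose and 11 fell, or 15.4% and 42.3% beside 14.8% and 14.1% of all genes.

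Among glycolytic genes 12 of 19 were called higher (63.2%) and 1 lower (5.26%), mostly by small amounts, with a median of 0.32. Over all genes 14.8% were called higher and 14.1% lower. The count of higher genes was 8 without SOX2-OFF replicate 3 or SOX2-ON replicate 1, and 10 without SOX2-OFF replicate 2. The largest was Pdk1, a kinase that blocks entry of pyruvate into the mitochondrial cycle, which went from 33.7, 30.8 and 23.4 TPM to 141, 129 and 131 TPM (2.14, SE 0.14, edgeR adjusted p = 3.11e-07). Both wild-type states had under 30 TPM on average, 29.0 in EpiLC and 26.9 in CEpiLC. The glucose transporters Slc2a1 (0.98, SE 0.09) and Slc2a3 (0.96, SE 0.19) rose, the latter from 579, 656 and 545 TPM to 1142, 1155 and 1286 TPM. Pfkp, a phosphofructokinase, rose by a log2 fold change of 1.05 (SE 0.11) and its muscle form Pfkm fell (-0.55, SE 0.08). The abundant Pkm, pyruvate kinase, rose from 2006, 1934 and 1879 TPM to 2745, 2560 and 2456 TPM (0.36, SE 0.05). The summed level of the list was 16913 to 18248 TPM in SOX2-OFF and 20617 to 23438 TPM in SOX2-ON.

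Some of the largest changes lay outside these groups. Trh, the precursor of thyrotropin-releasing hormone, gave one of the largest gains in level, from 49.5, 34.5 and 39.0 TPM to 1262, 962 and 921 TPM (4.63, SE 0.37, edgeR adjusted p = 1.87e-06). EpiLC averaged 69.5 TPM and CEpiLC 14.7 TPM. Pdzrn4 rose from 0.28, 0.06 and 0.15 TPM to 17.2, 20.4 and 13.6 TPM (6.82, SE 0.38). Nexmif, a gene linked to neurite growth, rose from 0.45, 0.41 and 0.42 TPM to 14, 13.8 and 15.98 TPM (5.05, SE 0.11), the smallest adjusted p of the named genes (1.46e-11 by edgeR). Adm, the vasoactive peptide adrenomedullin, rose from 1.41, 0.60 and 0.83 TPM to 19.4, 14.9 and 32.0 TPM (4.47, SE 0.42), and Peg10, an imprinted retrotransposon-derived gene, from 978, 743 and 729 TPM to 1468, 1684 and 2129 TPM (1.06, SE 0.21). Gbp2, an interferon-inducible GTPase, fell from 10.5, 14.5 and 6.06 TPM to 0.62, 0.33 and 0.53 TPM (-4.42, SE 0.56). S100a10, the annexin A2 partner, fell from 532, 531 and 590 TPM to 116, 100 and 166 TPM (-2.18, SE 0.30). Among the most abundant transcripts, Actg1, cytoplasmic gamma-actin, fell (-0.55, SE 0.07), as did Eef2, elongation factor 2 (-0.34, SE 0.05). Sprr2a1, Sprr2a2 and Sprr2a3 and Tmem254b were among the largest by fold but are uncertain, since most of their values were not whole and reads were split with near copies.

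The extraembryonic endoderm markers Cubn and Srgn were abundant in both groups of the TetON line and near 0 in wild-type CEpiLC. The list as a whole was not near 0 in wild-type cells, with summed levels of 368 to 398 TPM in EpiLC and 347 to 511 TPM in CEpiLC. Cubn, the endocytic receptor cubilin, read 100, 80.6 and 70.5 TPM in SOX2-OFF, 24, 34.2 and 77.4 TPM in SOX2-ON, and 0.147 ± 0.0702 TPM (SD, n = 3) in CEpiLC. Srgn, serglycin, read 119, 165 and 163 TPM, then 43.8, 61.1 and 136 TPM, with 0.35 TPM in CEpiLC. Gata6, a GATA factor of endoderm, was the gene of this list called higher, at 19.5, 22.9 and 21.0 TPM and then 27.9, 33.2 and 69.7 TPM (0.98, SE 0.28). Over the list of 22 tested genes 9 fell and 1 rose, and the count of lower genes rested on single libraries. By limma-voom it was 12, and in the 6 libraries with the replicate number as a block it was 13. It dropped to 8 without SOX2-OFF replicate 1 and to 6 by DESeq2 or in the 6 libraries alone. It was 4 without SOX2-OFF replicate 3, and 3 without SOX2-OFF replicate 2, SOX2-ON replicate 1 or SOX2-ON replicate 2. In the other direction, SOX2-ON replicate 3 stood apart, with a summed level of 2257 TPM beside 942 and 1104 TPM in the other 2 SOX2-ON libraries, 2089 to 2501 TPM in SOX2-OFF and 347 to 511 TPM in CEpiLC. Without it, 17 of 22 fell and 0 rose, and Gata6 was no longer called (0.48, edgeR adjusted p = 0.0654), nor was it without SOX2-OFF replicate 1 (0.0616) or by DESeq2 (0.0709). Sox17, an HMG-box factor of endoderm, passed the test without SOX2-ON replicate 3 (-1.01, edgeR adjusted p = 0.0166). Conversely, Cubn, Srgn, Dab2, an endocytic adaptor, and Col4a1, a basement membrane collagen, lost their call when SOX2-ON replicate 1, SOX2-ON replicate 2 or SOX2-OFF replicate 2 was left out, with edgeR adjusted p from 0.0707 to 0.146, and in the 6 libraries alone (0.0604 to 0.0881). Without SOX2-OFF replicate 3 the call was lost for Srgn, Dab2 and Col4a1 (0.0839, 0.0782 and 0.0782), and without SOX2-OFF replicate 1 for Cubn (0.109). DESeq2 did not call Cubn, Dab2 or Col4a1 (0.121, 0.0692 and 0.0695). In the definitive endoderm list, leaving out SOX2-ON replicate 3 moved the count of lower genes from 5 to 9 of 15 and that of higher genes from 2 to 1, which SOX2-OFF replicate 1 also did. The part of this endoderm signal in the other differences was not tested. Feeder fibroblast genes were at summed levels of 105 to 160 TPM in SOX2-OFF and 76.1 to 122 TPM in SOX2-ON, with 1 of 15 higher (2 without SOX2-OFF replicate 1 or SOX2-ON replicate 1) and 3 lower.

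**Figure D4:**
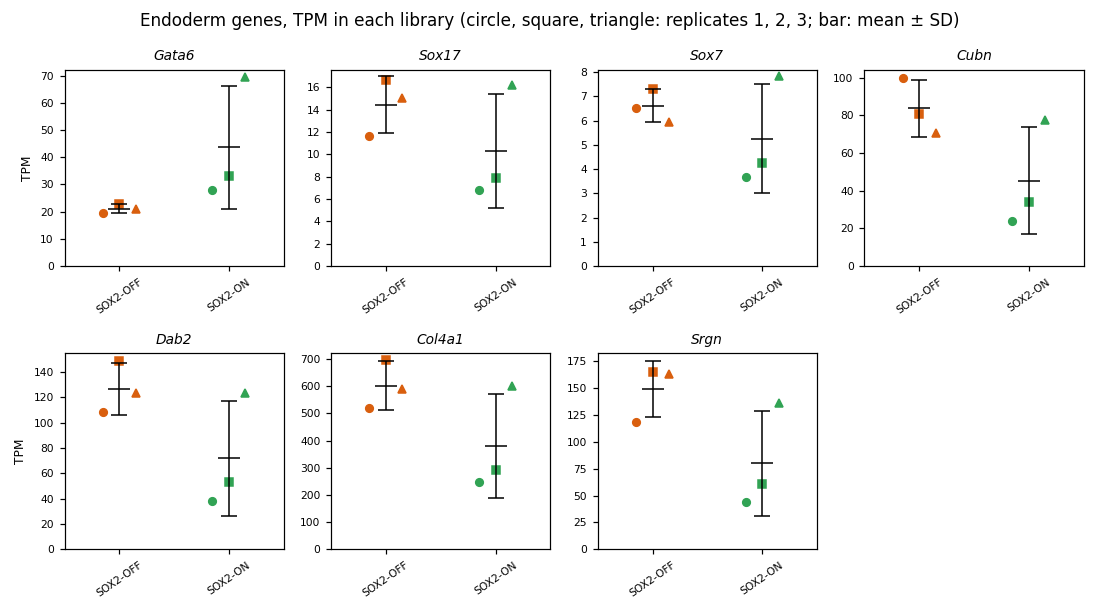
Levels of 7 endoderm genes in TPM (y axis, linear, from 0) in each SOX2-OFF and SOX2-ON library (x axis), with a symbol per replicate and the mean ± SD as bars. In each panel SOX2-ON replicate 3 (triangle) is the highest SOX2-ON library, as in Gata6 at 69.7 TPM beside 27.9 and 33.2 TPM.

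Remaining lists moved little or in both directions, where 14.8% of all genes were called higher and 14.1% lower. Notch and segmentation genes had 3 of 13 higher and 1 lower, with the ligand Jag1 rising from 7.97, 6.14 and 8.53 TPM to 28.7, 26.4 and 24.4 TPM (1.77, SE 0.20). Eph and ephrin genes, which guide cell sorting, had 4 of 18 higher and 6 lower, among them the receptor Ephb1 (2.00, SE 0.28) and the ligand Efna3 (-1.19, SE 0.22). DNA methylation genes had 4 of 12 higher and 3 lower, but 1 higher without SOX2-OFF replicate 2 or SOX2-ON replicate 2, and 2 without replicate 3 of either group. Genes of the integrated stress response had 3 of 20 higher (1 without SOX2-OFF replicate 1 or 2 or SOX2-ON replicate 1) and 3 lower. Of 18 targets of p53, 1 was higher (0 without SOX2-OFF replicate 2 or 3 or SOX2-ON replicate 2 or 3) and 3 lower (1 without any SOX2-OFF library or SOX2-ON replicate 1). There Cdkn1a, a cell cycle inhibitor, fell from 389, 373 and 422 TPM to 233, 214 and 240 TPM (-0.84, SE 0.09).

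The wild-type comparison of EpiLC with CEpiLC shares no library with the TetON comparison, and EpiLC, like SOX2-ON, has the higher Sox2 level of its pair. However, EpiLC was without CHIR99021 and CEpiLC had it, whereas both TetON groups had it. In the wild-type pair Sox2 level and CHIR99021 thus cannot be told apart. Of the 593 genes that fell in SOX2-ON by a log2 fold change over 1, 280 (47.2%) were also that much lower in EpiLC than in CEpiLC, which is 29.9% of the 937 such wild-type genes, beside 6.6% of all genes tested. Of the 771 that rose, 192 (24.9%) were also higher in EpiLC, or 24% of 801 wild-type genes, beside 5.64% of all tested. Opposite directions were met by 70 of the genes that rose and 42 of those that fell. Streak genes such as T and Mixl1 belong to the first group. Nr5a2 went the other way, higher in SOX2-ON and lower in EpiLC, at 0.13 TPM against 0.62 TPM in CEpiLC (-2.15, SE 0.40, edgeR adjusted p = 0.000901). Dppa3 averaged 2.30 TPM in EpiLC and 4 TPM in CEpiLC, which did not pass the test (-0.83, SE 0.41, edgeR adjusted p = 0.119). Across all 14196 genes the log2 fold changes of the pair correlated with a Pearson r of 0.324, a description across genes, which are not replicates. CEpiLC levels lay between SOX2-OFF and SOX2-ON for 425 of the 771 genes that rose (55.1%) and for 274 of the 593 that fell (46.2%). CEpiLC lay above both for 234 of the genes that fell (39.5%).

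**Figure D5:**
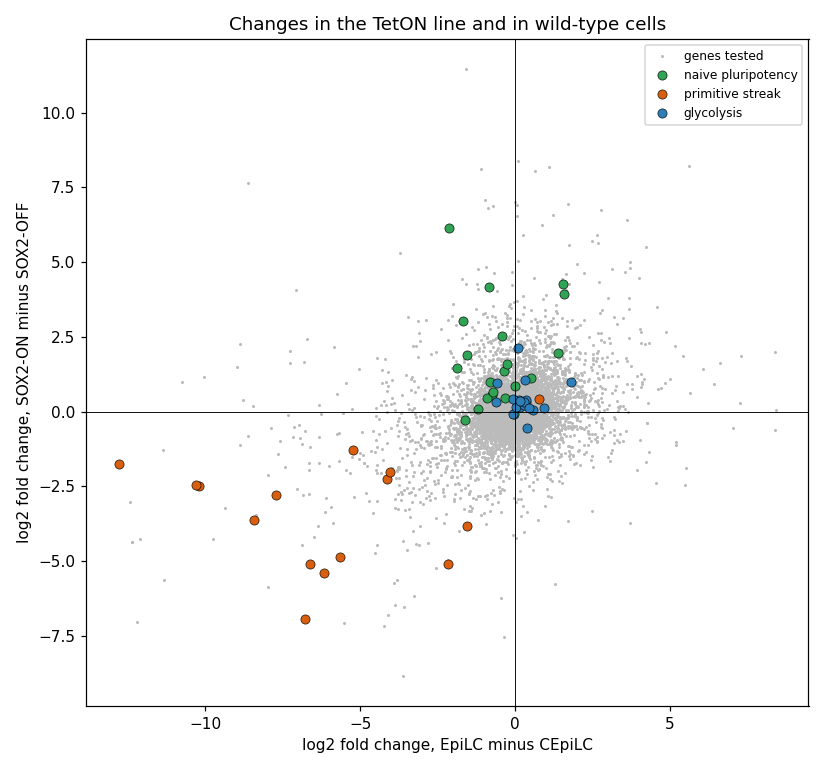
Log2 fold change of SOX2-ON over SOX2-OFF (y axis) against that of EpiLC over CEpiLC (x axis) for the 14196 tested genes (grey), with 3 gene lists in colour. Most primitive streak genes lie low and left, T among them at -2.47 on the y axis, while Mesp2 lies above 0 at 0.42. Naive genes lie mostly above 0 on the y axis, up to 6.13 for Nr5a2.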

How the data were processed

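Polyadenylated RNA was read as single-end, strand-specific libraries of 76 bp. Per the methods and the labels, the authors trimmed reads with cutadapt 1.16, aligned them to mm10 with STAR 2.5.2a and quantified RefSeq genes with RSEM 1.3.0, without pooling replicates. The authors deposited, for each library, an expected count per gene, which RSEM estimates and need not be whole, and TPM values, used here for levels only. The labels give no batch or date. Replicates were labelled as separate biological replicates.

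Expected counts were rounded to whole numbers. Of 24736 genes 14196 passed filterByExpr. Quasi-likelihood models of edgeR (version 4.0.16, with limma 3.58.1 under R 4.3.3) were fitted to all 12 libraries in one model with 8 residual degrees of freedom, TMM scaling and Benjamini-Hochberg adjustment over all genes tested, and standard errors came from the F statistic. A gene with at most 3 counts in every library of a group was given a fold bound against that floor, which covers counting error only. Groups were said not to overlap from the 3 values of each. The edgeR test was tested on simulated counts. Rn45s took 0.209 to 3.17% of counts in the 6 libraries compared, chi-square per degree of freedom between replicates was at least 9.98, and the common biological coefficient of variation was 0.105.

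Genes named are those of the gene lists, the 15 with the largest fold change in each direction among called genes with separate groups and an average level of 2 log2 CPM or more, then the 10 in each direction with the largest TPM difference. The members and the lists were chosen with earlier results of these data known. Of 474 genes under the rule 337 had a RefSeq promoter window. Alternatives were RLE factors, library totals alone, other filters on counts, DESeq2 1.42.0 (the study used DESeq2 1.16.1), limma-voom, the 6 libraries alone, the replicate number as a block, an adjusted p of at most 0.01 and leaving out each replicate. Same-numbered EpiLC and CEpiLC libraries deviated together (r of 0.120, 0.132 and 0.103 across genes), and so their numbers were taken to pair them, from the values alone. The wild-type values given are those of the model without the block, since the block changed no call named and no count by over 1.5 times. Some genes are not reported here.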

Additional observations from a re-analysis of the deposited data

How the results depend on the processing

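The SOX2-ON and SOX2-OFF comparison gave 4091 called genes, and the alternatives moved this count by less than 1.5 times, except an adjusted p of at most 0.01, which left 2437. Genes higher by a log2 fold change over 1 numbered 771 and fell to 509 when at least 50 counts in 3 libraries were required, since fewer genes were then tested. Leaving out each library in turn gave 3054 to 3923 called genes, 651 to 730 such higher genes and 514 to 682 such lower genes, and 4828 to 5447 called genes for EpiLC against CEpiLC. DESeq2 called 4046 genes and limma-voom 4057. Same-numbered SOX2-ON and SOX2-OFF libraries deviated together with r of 0.053, 0.073 and 0.090, all below 0.1, so the numbers were not taken to pair them, although every library correlated best with its own number. The replicate block in the 6 libraries gave 3930 called genes, beside 3821 without it in the same 6. The block brought Nanog (0.85, edgeR adjusted p = 0.00112) and Dusp6 (-0.29, 0.0107) past the threshold, whereas Pou5f1 and Wnt8a were already past it in the 6 libraries without the block (0.0461 and 0.0452). For EpiLC against CEpiLC, with 5994 genes called, the block gave 5706 genes beside 5404 in the same libraries without it. With the block 777 genes were higher and 871 lower in EpiLC by a log2 fold change over 1, 184 and 260 of them shared with SOX2-ON, and neither Nr5a2 (0.00808) nor Dppa3 (0.0647) changed its side of the threshold. Counts of gene lists under any alternative, and these blocked wild-type values, were chosen after seeing the data.

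Near-zero differences that were not called changed sign. Cdh1 was at 0.013 with library totals alone, at 0.0063 with the block and from -0.12 to 0.068 without single libraries. Epcam was at 0.010 with library totals alone and from -0.038 to 0.029 without single libraries. Leaving out single libraries gave -0.14 to 0.013 for Axin2, -0.037 to 0.18 for Fbxo15 and -0.15 to 0.052 for Sox11. The largest median shift of a chromosome was -0.04 under both minimum levels. Depth limits genes near the floor of 3 counts, such as Mesp1 and Neurog2.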
